A study of Homo sapiens with 48 samples.

Results

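The cytosolic heat shock chaperones were followed in RNA from 48 samples of THP-1. This established monocytic leukaemia line of human origin had been differentiated with PMA, a phorbol ester that gives it macrophage features. The group was defined by gene symbol alone: HSPA1A, HSPA1B, HSPA6, DNAJB1, HSPB1, HSPH1, BAG3, HSPA8, DNAJA1 and HSP90AA1. These 10 genes were represented by 35 of the 45220 array features, out of 20399 gene symbols in all. HSP90AA1 had 12 features, HSPA1A 10, HSPA6 3, and HSPB1, HSPH1 and HSPA8 2 each, while HSPA1B, DNAJB1, BAG3 and DNAJA1 had 1 each. The exposed groups carry the names rCNT, tCNT, Baytube, Graphite, Fullerene and SES, which are carbon nanomaterials given as 100 µg in 1 ml of medium for 6 or 24 h, with 3 samples in each of the 12 groups. The controls had 6 samples at 6 h and 6 at 24 h. All groups, controls included, came from the same PMA-differentiated line, and no label tells whether replicates came from separate cultures, so a p-value measures only the spread between these samples, which may be technical.

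Chaperones of this group bind unfolded segments of other proteins and keep them from clumping. HSPA proteins (the Hsp70 family) work in ATP-driven cycles that DNAJ proteins (the Hsp40 family) start and that HSPH1 and BAG3 help to end by exchanging the bound nucleotide, HSPB1 is a small ATP-independent holdase, and HSP90AA1 finishes the folding of kinases and receptors. In stressed cells the transcription factor HSF1 trimerises and binds inverted repeats of the letters GAA (heat shock elements). It induces HSPA1A, HSPA1B, HSPA6, DNAJB1, HSPB1, HSPH1 and BAG3, called inducible here. HSPA8, DNAJA1 and HSP90AA1 are already abundant in unstressed cells and are called constitutive here. The word is loose for HSP90AA1, which stress can raise further.

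The promoters of 4 members of the Hsp70 family are printed because they set the inducible genes beside the constitutive HSPA8. They are RefSeq sequences of the human build GRCh38.p14, from 250 bases before to 50 bases after the annotated start, written 5′ to 3′ on the strand of the gene. HSPA1A lies at chr6:31815293-31815592 on the plus strand, HSPA1B at chr6:31827488-31827787 on the plus strand, HSPA6 at chr1:161524290-161524589 on the plus strand and HSPA8 at chr11:123062087-123062386 on the minus strand. Capitals mark each match to GAANNTTC or TTCNNGAA, including overlapping matches, which as palindromes read the same on both strands.
HSPA1A: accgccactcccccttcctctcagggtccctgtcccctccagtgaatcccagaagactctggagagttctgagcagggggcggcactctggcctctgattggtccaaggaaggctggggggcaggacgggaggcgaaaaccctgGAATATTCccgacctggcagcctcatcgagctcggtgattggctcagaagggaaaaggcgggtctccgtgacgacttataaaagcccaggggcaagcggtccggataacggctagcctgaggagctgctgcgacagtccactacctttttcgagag
HSPA1B: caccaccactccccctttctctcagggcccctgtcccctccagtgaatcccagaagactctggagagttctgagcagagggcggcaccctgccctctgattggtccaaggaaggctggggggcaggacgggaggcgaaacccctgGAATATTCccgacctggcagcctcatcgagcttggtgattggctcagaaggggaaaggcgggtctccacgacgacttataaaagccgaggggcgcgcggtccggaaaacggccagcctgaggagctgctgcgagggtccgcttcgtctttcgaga
HSPA6: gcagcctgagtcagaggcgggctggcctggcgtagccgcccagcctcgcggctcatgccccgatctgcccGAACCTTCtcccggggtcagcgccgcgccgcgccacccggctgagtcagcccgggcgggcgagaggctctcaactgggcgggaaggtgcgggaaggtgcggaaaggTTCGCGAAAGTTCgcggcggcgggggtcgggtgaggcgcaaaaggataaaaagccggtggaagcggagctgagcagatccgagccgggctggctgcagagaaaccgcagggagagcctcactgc
HSPA8: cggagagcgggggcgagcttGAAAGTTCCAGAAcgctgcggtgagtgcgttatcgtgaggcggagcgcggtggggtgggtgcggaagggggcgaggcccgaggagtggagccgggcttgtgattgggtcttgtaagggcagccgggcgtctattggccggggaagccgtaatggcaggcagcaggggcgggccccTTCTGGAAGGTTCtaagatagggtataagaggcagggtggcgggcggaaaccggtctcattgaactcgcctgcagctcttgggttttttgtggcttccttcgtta
One of these motifs was present in 13.49% of 35116 human promoters of the same length. HSPA1A and HSPA1B each held 1 match, at -106 and -105 bases from the start, and the 2 promoters were identical at 277 of 299 aligned positions. HSPA6 held 3 matches and HSPA8 held 4. Of the other members, HSPB1 and DNAJA1 held 1 and 3, HSPH1 and BAG3 held 0, and the separate starts of DNAJB1 and HSP90AA1 held between 0 and 3. The longer repeats GAANNTTCNNGAA and TTCNNGAANNTTC, found in 0.49% of all promoters, occurred once in HSPA6 and at 2 places in the constitutive HSPA8, and DNAJA1 and 1 start of HSP90AA1 held 1 each. A match is a string of letters and does not show that a factor binds there.

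The deposited values are log2 values between 6.05 and 16.00, already normalised, with sample medians between 7.68 and 7.70. Brightness depends on the probe, so the positions on this scale given here rank no RNA against another. The macrophage genes CD68 (13.74 ± 0.86), CD14 (14.05 ± 1.06) and CSF1R (15.29 ± 0.42) lay in the upper part of this scale, and EPCAM (6.73 ± 0.19), COL1A1 (6.83 ± 0.13) and CD3E (7.28 ± 0.36; all SD, n = 48), which mark epithelium, fibroblasts and T cells, lay near its lower end. Other markers of such cells were brighter, among them KRT8 (8.91 ± 0.44) and KRT18 (8.21 ± 0.43) of epithelium, PDGFRA of fibroblasts (9.32 ± 0.75) and PECAM1 of endothelium (12.76 ± 0.57). The lymphocyte genes CD79A (10.64 ± 0.74) and GNLY (11.30 ± 0.38) and the promyelocyte genes ELANE (11.59 ± 1.00) and AZU1 (13.44 ± 0.96) were bright too, whereas MPO was not (6.61 ± 0.25), and the part of these genes in the results was not tested.

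One property of the table bears on every result. Samples whose columns stand 20 or 40 places apart shared the marks of an array surface, with a median correlation of the surface component of 0.86 over 36 pairs, against -0.08 over 38 pairs of samples that the labels place on one array. The best surface match of 45 of 48 samples lay 20 or 40 columns away and that of 0 samples shared the labelled array. In deviations from the mean of each feature, taken over all features, samples of the same labelled group correlated at -0.015 on average. Samples 20 or 40 columns apart correlated at 0.61. Columns and labels may therefore be out of step, and all group names below are the labelled ones. A missing call in a labelled group is thus no measure of the material it names. No sample was moved to another group. The SD of the surface component over an array, called surface SD, had a median of 0.106 and exceeded 0.2 in 6 samples. The 20 sets of columns 20 or 40 apart are called column sets, and each chaperone was described against both the labelled groups and the column sets.

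Over the labelled groups few chaperones passed the test. In limma fits of all 45220 features, 1 of the 10 genes, HSPA1B, passed an adjusted p of 0.05 in any of the 12 comparisons of a material with its control. It was lower in the Fullerene 6 h group, where 0.429% of all features were called, 0.318% lower and 0.111% higher. In each of the other 11 material comparisons 0 chaperone features and 0% of all features were called. Without adjustment, 2 of the 35 chaperone features lay above and 6 below control with p under 0.05 in the Fullerene 6 h group, where 10.3% of all features had such a p, and 1 above and 5 below in the Graphite 24 h group, where 15.1% did. The tCNT 6 h group had 2 above and 1 below (6.66% of all features), the rCNT 6 h group 0 above and 2 below (2.28%), the Baytube 6 h group 1 above (1.12%) and the rCNT 24 h group 1 below (4.15%). The other groups had 0 such features, against 2.06% of all features in Graphite 6 h, 0.82% in SES 6 h, 2.23% in tCNT 24 h, 5.23% in Baytube 24 h, 0.694% in Fullerene 24 h and 3.03% in SES 24 h.

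The mean of all materials against control gave 0 calls among the chaperones and 0% of all features at 6 h, at 24 h and over both times. Without adjustment, 2 chaperone features were above and 1 below control at 6 h (3.12% of all features), 0 above and 1 below at 24 h (4.96%), and 2 above and 1 below over both times (7.39%). The features above control over both times were those of BAG3 (0.57 ± 0.23) and HSPB1 feature 40752 (0.40 ± 0.15, SE), each with an adjusted p of 0.671 in limma. The 24 h against the 6 h control gave 0 calls and 0 chaperone features with an unadjusted p under 0.05, against 1.33% of all features. The F test over the 14 labelled groups called 0 chaperone features and 0.0287% of all features, and its unadjusted p was under 0.05 for 4 of 35 chaperone features, which were HSPA1B and 3 features of HSP90AA1, against 2.78% of all features. A 24 h effect that differed from the 6 h effect was called for 0 chaperone features, against 0.0221% of all features in the Fullerene interaction and 0% in the other 5. HSPA1B had the lowest adjusted p there, 0.448 (limma), for a difference of 1.71 ± 0.47 (SE, log2). The unadjusted counts of chaperone features in these interactions were 4 for Fullerene (4.23% of all features), 4 for Graphite (9.35%), 3 for tCNT (3.25%) and 1 each for rCNT (1.41%), Baytube (2.94%) and SES (1.78%).

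**Figure D1:**
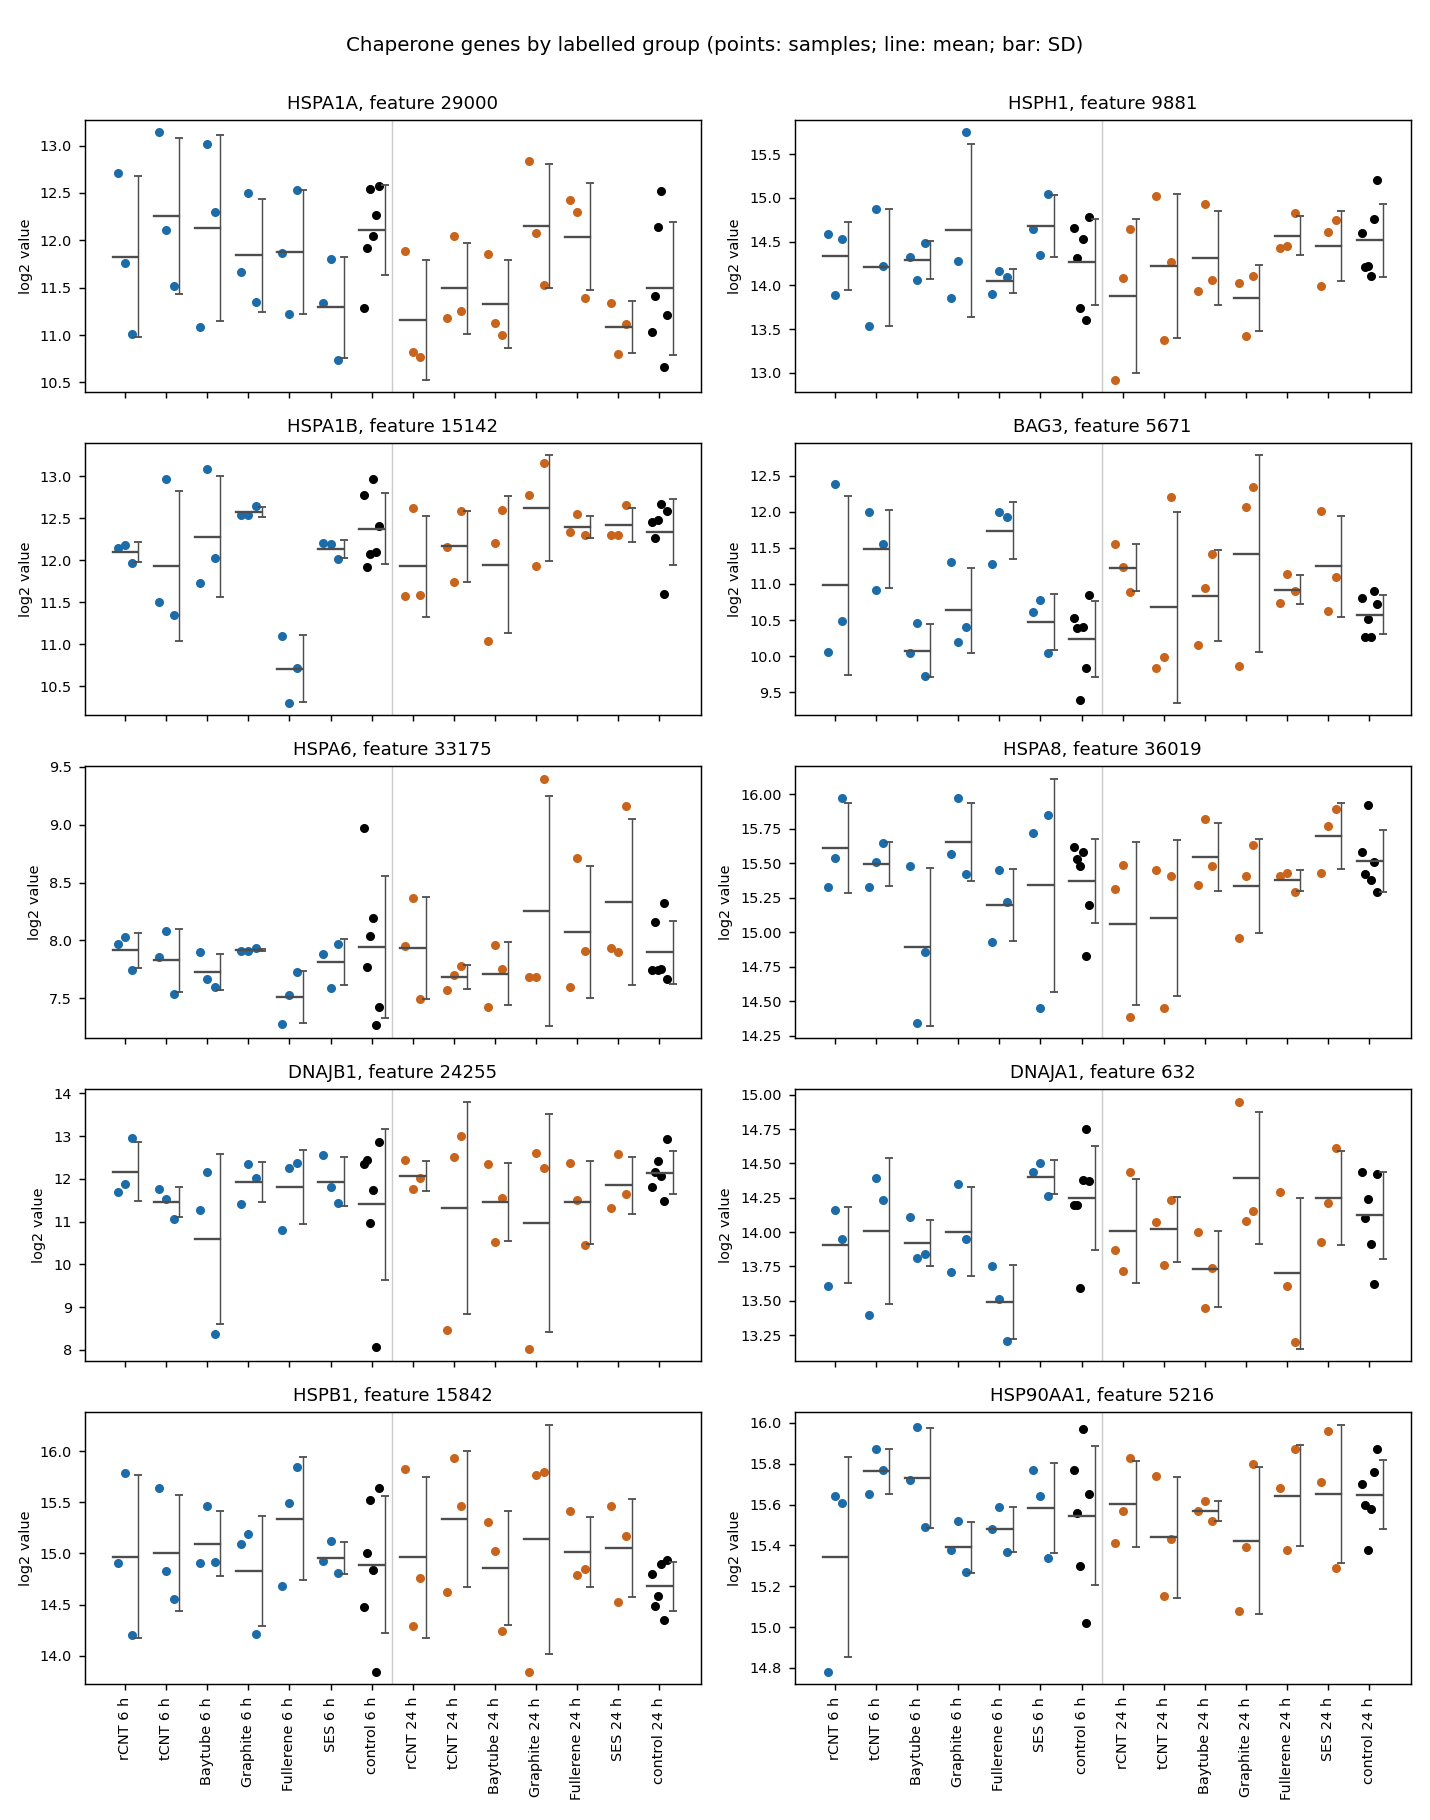
Log2 values of the feature with the highest mean of each of the 10 chaperone genes (y axis) in each of the 14 labelled groups (x axis). Points are samples, horizontal lines are means and bars beside them are SDs (n = 3 in exposed groups, 6 in controls). HSPA1B lies lower in Fullerene 6 h than in control 6 h without overlap, and single low samples widen the DNAJB1 groups.

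HSPA1B encodes an inducible Hsp70 whose protein sequence is the same as that of HSPA1A. In the labelled Fullerene 6 h samples its feature stood at 11.10, 10.30 and 10.72, against 12.77, 11.92, 12.07, 12.97, 12.09 and 12.41 in the 6 h controls. The groups did not overlap, and 1.98% of all features lay below their controls in this way. The log2 fold change was -1.66 ± 0.33 (SE) with an adjusted p of 0.0117 in limma. At 24 h the Fullerene samples stood at 12.33, 12.55 and 12.30, within the 11.59 to 12.67 of the 24 h controls.

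The low HSPA1B values went with column sets as well as with the label. Labelled groups held 52.4% of its variance and column sets 63.3%, against medians of 24.2% and 79.5% over all features. HSPA1B is described here because it was called by label, so its group share is no separate support. Fullerene 6 h replicates 2 and 3 belong to column set 3, where the remaining sample, tCNT 6 h replicate 1, stood at 11.50, below all 6 controls of 6 h. Fullerene 6 h replicate 1 belongs to column set 15 with tCNT 6 h replicate 3, which stood at 11.34. With the column sets as a random block the fold change was -1.32 and the adjusted p in limma was 0.427, so the call was lost. It was also lost without Fullerene 6 h replicate 2 (-1.37, adjusted p = 0.409) and without replicate 3 (-1.68, adjusted p = 0.118), and in a fit of its own 2 groups (adjusted p = 0.217). Without replicate 1, a sample of high surface SD, HSPA1B stood at -1.93 (adjusted p = 0.00299 in limma). HSPA1A feature 8055 (-2.33, adjusted p = 0.00353) and HSP90AA1 feature 23954 (-1.73, adjusted p = 0.0202) were called as well in limma. That fit rested on the 2 remaining Fullerene 6 h samples, both of column set 3. The share of all features called in it is not given here, so these calls are not read as particular to chaperones. The 24 features around the HSPA1B spot did not share the dip: in Fullerene 6 h replicates 2 and 3 HSPA1B lay -1.93 and -1.51 from its own median, and the median deviation of its neighbours was -0.09 and -0.05.

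**Figure D2:**
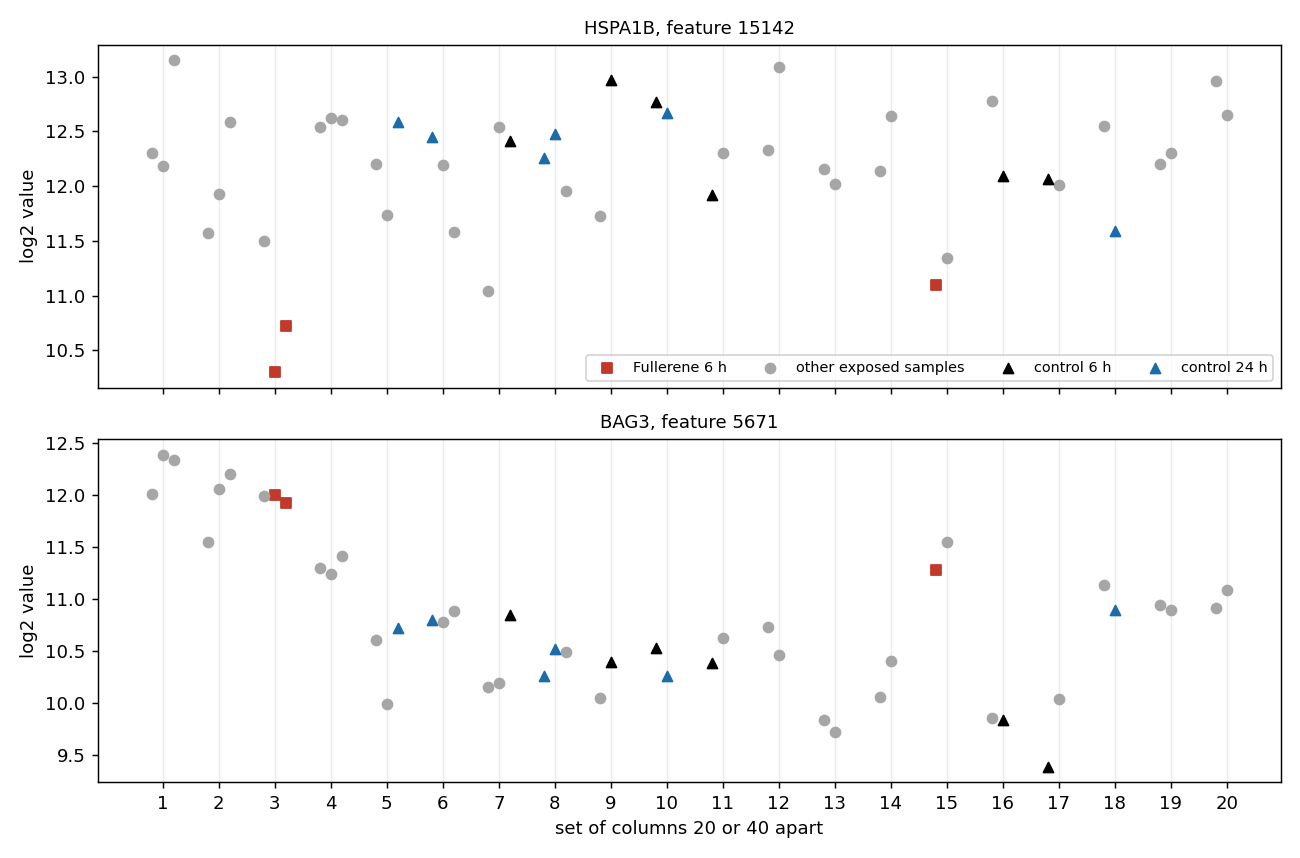
Log2 values of HSPA1B and BAG3 (y axis) by column set (x axis, 20 sets of columns 20 or 40 apart), 1 point per sample. Fullerene 6 h samples (squares) fall in sets 3 and 15, next to low HSPA1B values of other exposed samples, and every BAG3 value of sets 1 to 4 is at least 11.24.

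HSPA1A is the other gene of this locus pair, and its 10 features carry one transcript identifier. Probe sequences were not used here, so whether these features read the same stretch of RNA, and how far HSPA1A and HSPA1B features also detect each other's near-identical transcripts, was not tested, and the values of both genes are uncertain in this respect. In the Fullerene 6 h group their log2 fold changes ran between -1.45 and -0.06, with a median of -0.24, and 0 were called. The lowest was feature 8055, at 12.07, 9.38 and 9.71 in the Fullerene samples, against 11.21, 11.74, 12.00, 12.00, 11.66 and 12.43 in control. The exposed and control ranges overlapped through replicate 1, the fold change was -1.45 ± 0.47 (SE) and the adjusted p 0.222 (limma). The other 9 features gave between -0.59 and -0.06. Feature 8055 lay more than 1 below the median of the other HSPA1A features in 3 samples, Fullerene 6 h replicates 2 and 3 and tCNT 6 h replicate 1, which make up column set 3. HSPA1B was at 11.50 or lower in these samples and in 3 others, Baytube 24 h replicate 1 at 11.04, Fullerene 6 h replicate 1 at 11.10 and tCNT 6 h replicate 3 at 11.34. HSPA1B has no repeated feature on the array, so the same comparison could not be made for it.

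Within a sample the HSPA1A features split into those that agreed and those that did not. Of the 10, 6 were set apart by a correlation above 0.8 with the median of the others. As that choice implies, their pairwise correlations over the samples ran from 0.87 to 0.97, and their typical SD around a common sample level was 0.11. Features 18571, 19604 and 20947, which lie in rows 219 to 247 of the 532 rows of the array layout, correlated with the median of the others at 0.40, 0.48 and 0.35 only. Their lowest deviations from that median were -5.30, -4.31 and -5.58. The deepest dips sat in column sets 13, 15 and 16, whose 6 samples are those with a surface SD above 0.2. They are Fullerene 6 h replicate 1 and tCNT 6 h replicate 3 in set 15, tCNT 24 h replicate 1 and Baytube 6 h replicate 3 in set 13, and in set 16 the first Graphite 24 h sample beside the fifth of the 6 h controls. In Baytube 6 h replicate 3, for example, feature 20947 read 6.67 where the median of the other HSPA1A features read 12.25, and the surface component at its spot was -2.52. In 10 of the 48 samples the HSPA1A features spanned more than 2 log2 units.

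**Figure D3:**
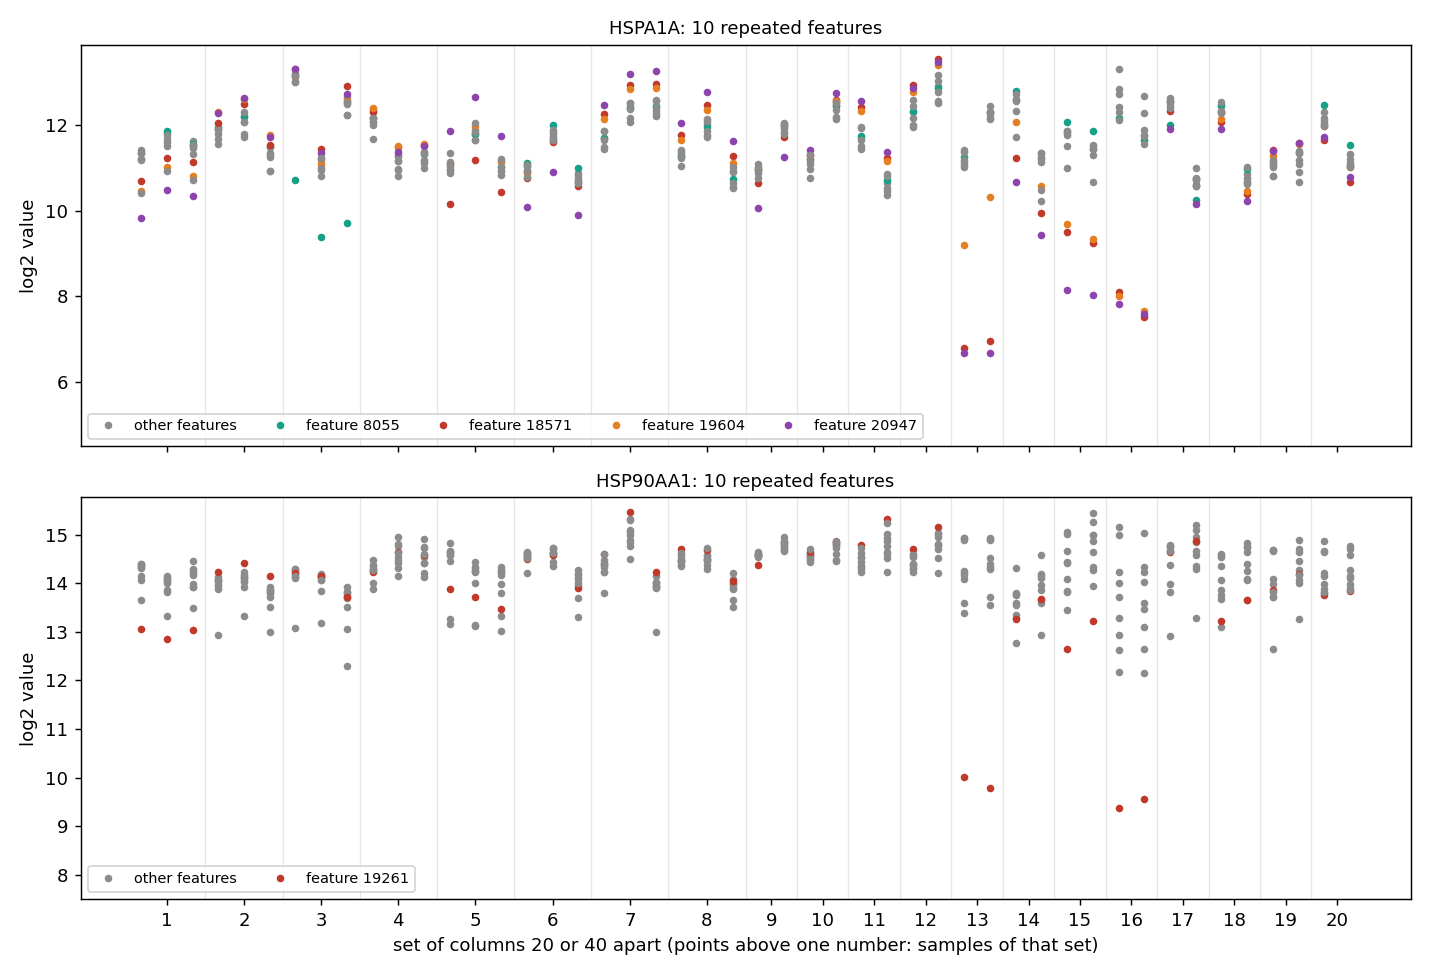
Log2 values (y axis) of the 10 repeated features of HSPA1A and of HSP90AA1 in the 48 samples, ordered by column set (x axis). Coloured points are 4 HSPA1A features that departed from the median of the others and the HSP90AA1 feature with the deepest dip. HSPA1A features 18571, 19604 and 20947 fall below the grey ones in sets 13, 15 and 16, and feature 8055 does so in set 3.

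The median of its 10 features gave a sample level of HSPA1A that is little touched by these dips. It ran from 10.66 to 13.15, a 5.62-fold span. The highest group mean was 12.18 ± 0.90 in tCNT 6 h and the lowest 11.00 ± 0.22 in SES 24 h (SD, n = 3), while the controls averaged 11.94 ± 0.49 at 6 h and 11.41 ± 0.72 at 24 h (SD, n = 6). In exact two-sided permutation tests of each material against its control, chosen after the values were seen, the lowest p of 12 was 0.083, for SES 6 h at 11.14 ± 0.53 (SD, n = 3), against 11.94 ± 0.49 in control. All 12 adjusted values were 1.0, and the smallest p that 84 arrangements allow is 0.012. Labelled groups held 28.6% of the variance of this level and column sets 36.1%, which are close to the 27.7% and 40.4% that their numbers of levels give on average to values without structure. The 6 features chosen for their agreement held 25.3% to 33.3% of their variance between labelled groups and 32.5% to 46.5% between column sets.

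HSPA6 is the strictly inducible Hsp70, with little RNA in unstressed human cells. Its 3 features had means of 7.90 ± 0.43, 6.71 ± 0.18 and 7.75 ± 0.64 (SD, n = 48), close to the lower end of the scale. Feature 33175 read 8.97 in control 6 h replicate 1, 9.40 in Graphite 24 h replicate 3 and 9.16 in SES 24 h replicate 3, and feature 41937 read 9.47, 9.41 and 9.73 in the same 3 samples. These 2 features correlated at 0.72 over the samples, while feature 39857 correlated at 0.12 with feature 41937. In the Graphite 24 h group feature 41937 stood at 8.87, 7.27 and 9.41, against 7.77, 8.22, 7.53, 7.51, 7.04 and 7.54 in the 24 h controls. The ranges overlapped, and the fold change of 0.91 ± 0.44 (SE) had an adjusted p of 0.321 (limma).

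DNAJB1, the Hsp40 that partners the inducible Hsp70 proteins, spanned 8.02 to 13.00 over the 48 samples, a 31.6-fold range. Exposed samples of 6 h had a lowest, median and highest value of 8.36, 11.78 and 12.96, against 8.07, 12.05 and 12.86 in the 6 h controls. Exposed samples of 24 h had 8.02, 11.89 and 13.00, against 11.48, 12.11 and 12.94 in the 24 h controls. The groups overlapped, and the low values came from 4 samples, with 8.02 in the first Graphite 24 h sample, 8.36 in Baytube 6 h replicate 3, 8.47 in tCNT 24 h replicate 1 and 8.07 in the fifth 6 h control. They are the members of column sets 13 and 16, the sets with the deep HSPA1A dips, and column sets held 97.1% of the variance of DNAJB1, against 13.7% for the labelled groups. The 24 neighbouring features fell less, with median deviations of -0.65 to -0.34 in those 4 samples, where DNAJB1 lay -3.82 to -3.38 from its median. Group means ran from 10.60 in Baytube 6 h to 12.17 in rCNT 6 h, a span of 1.57, against a pooled SD within groups of 1.31.

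BAG3, the co-chaperone that links Hsp70 to selective autophagy, had the largest positive fold change of the inducible members in the labelled Fullerene 6 h group. Its feature stood at 11.28, 12.00 and 11.92, against 10.53, 10.39, 9.39, 10.40, 9.84 and 10.85 in the 6 h controls. In the tCNT 6 h group it stood at 11.99, 10.91 and 11.55. Both groups lay above control without overlap, as 2.97% of all features did in Fullerene 6 h and 1.3% in tCNT 6 h. The fold changes were 1.50 ± 0.48 (adjusted p = 0.222) and 1.25 ± 0.48 (SE, adjusted p = 0.654) in limma, so neither was called. Column sets held 94.3% of the variance of BAG3. The 12 samples of column sets 1 to 4, of which 0 were labelled controls, had values of 11.24 to 12.39 with a median of 11.99, against 9.39 to 11.55 with a median of 10.51 in the other 36 samples. Within a column set the BAG3 values of the samples typically lay within 0.26 of each other. Column sets 12, 13, 14, 15, 19 and 20 also held only exposed samples, with BAG3 between 9.72 and 11.55. Samples of 1 label differed between sets, with Graphite 24 h at 12.34, 12.06 and 9.86 in sets 1, 2 and 16 and rCNT 6 h at 12.39 and 10.06 in sets 1 and 14.

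HSPH1, the Hsp110 exchange factor, ranged from 12.92 to 14.27 on feature 9881 in those 12 samples, which were singled out by their BAG3 values, against 13.37 to 15.75 in the other 36. These ranges overlapped, with medians of 14.02 in the 12 and 14.50 in the 36, and no test was made. In the Graphite 24 h group its feature 9881 stood at 14.03, 13.42 and 14.11, against 14.60, 14.21, 14.22, 14.11, 14.76 and 15.20 in control. These groups met at 14.11 to the second decimal, with the exposed samples below, as 4.11% of all features were in this comparison. HSPH1 was not called in any labelled comparison, and its group means ran from 13.85 in Graphite 24 h to 14.68 in SES 6 h, against a pooled SD within groups of 0.54. Its 2 features correlated at 0.68, and both peaked in Graphite 6 h replicate 3, at 15.75 and 14.32.

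HSPB1, the small heat shock protein also known as Hsp27, had 2 features that shared little, with a correlation of 0.01 over the 48 samples. The bright feature 15842 averaged 14.98 ± 0.54 and the dim feature 40752 averaged 9.62 ± 0.49 (SD, n = 48). Feature 40752 stood at 10.58, 10.63 and 9.80 in the Fullerene 6 h group, against 8.97, 8.91, 9.46, 10.02, 9.37 and 8.70 in control. The ranges overlapped through replicate 3, and the fold change of 1.10 ± 0.31 (SE) had an adjusted p of 0.134 (limma). Feature 15842 stood at 14.68, 15.49 and 15.85 in the same exposed samples, within the control range of 13.84 to 15.64 for 2 of the 3. At 24 h its exposed samples had a lowest, median and highest value of 13.84, 15.10 and 15.93, against 14.35, 14.69 and 14.94 in control, so the exposed range enclosed that of the controls.

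HSPA8, the constitutive Hsp70 of the cytosol, had an SD of 0.39 over the 48 samples. Exposed samples of 6 h had a lowest, median and highest value of 14.34, 15.46 and 15.97 on its bright feature, against 14.83, 15.50 and 15.62 in control. Exposed samples of 24 h had 14.39, 15.42 and 15.89, against 15.29, 15.47 and 15.92 in control. The ranges overlapped at both times. The feature was at 15.9 or above in 3 samples, close to the end of the scale. Its group means ran from 14.89 ± 0.57 in Baytube 6 h to 15.70 ± 0.24 in SES 24 h (SD, n = 3), and 0 comparisons were called. The dim feature 7121 stood at 7.55, 7.72 and 8.22 in rCNT 24 h, against 8.83, 8.35, 8.26, 8.27, 8.32 and 8.47 in the 24 h controls, without overlap, as 2.22% of all features did there.

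DNAJA1, a farnesylated Hsp40 that works with HSPA8, stood at 13.75, 13.51 and 13.21 in the Fullerene 6 h group, against 14.20, 14.20, 13.59, 14.38, 14.75 and 14.37 in control. The groups overlapped through control replicate 3, and the fold change of -0.76 ± 0.25 (SE) had an adjusted p of 0.238 (limma). Its other group means lay between 13.70 ± 0.55 in Fullerene 24 h and 14.40 ± 0.12 in SES 6 h (SD, n = 3).

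HSP90AA1, an Hsp90 isoform that is abundant without stress and that stress can raise further, varied least on its brightest feature, with group means from 15.34 in rCNT 6 h to 15.76 in tCNT 6 h and a pooled SD within groups of 0.26. Other features of the gene were low in the labelled Graphite 24 h group, without a call. Feature 23954 stood at 13.29, 13.33 and 13.48 there, against 14.62, 14.63, 14.73, 14.85, 14.39 and 14.33 in the 24 h controls. The groups did not overlap, and the fold change of -1.23 ± 0.38 (SE) had an adjusted p of 0.21 (limma). In a limma fit of these 2 groups alone, which uses only their own spread, the adjusted p was 0.0167 and the feature was called. The share of all features called in that fit is not given here, so the call is not read as particular to HSP90AA1. In this group 4 of the 35 chaperone features, 3 of HSP90AA1 and 1 of HSPH1, lay below control without overlap, against 4.11% of all features. Over all 12 features the Graphite 24 h fold changes ran from -2.03 to 0.18 with a median of -0.39, and 10 of the 12 were below 0. The rCNT 6 h group had 12 of 12 below 0, with a median of -0.39, and the tCNT 24 h group 12 of 12, with a median of -0.41. Other groups went the other way. The median was 0.32 in SES 6 h (2 of 12 below 0), 0.28 in Baytube 6 h (2 of 12), 0.2 in tCNT 6 h (4 of 12) and 0.03 in Graphite 6 h (5 of 12). Repeated features of 1 gene share the RNA of each sample, so these counts are not independent of each other. Of the 10 repeated features, 19261 had the lowest deviation from the median of the others, -4.61, in Baytube 6 h replicate 3, and the median of the 10 ran from 13.50 to 15.02 over the samples, a 2.87-fold span.

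On 1 feature per gene, the median SD was larger for inducible than for constitutive members, while over all their features the SDs overlapped. The SD over the 48 samples, taken on the highest-mean feature of each gene, had a median of 0.60 over the 7 inducible genes and a range of 0.43 for HSPA6 to 1.20 for DNAJB1. Over the 3 constitutive genes the median was 0.39 and the range 0.25 to 0.39. The median over all features was 0.35. No test was made of this difference of 0.21 between 7 and 3 genes. The features used for HSPA8 and HSP90AA1 averaged 15.38 and 15.56, near the end of the scale. Each was at 15.9 or above in 3 samples. Of the inducible genes, HSPB1 averaged 14.98 and reached 15.9 in 1 sample. Whether the end of the scale narrowed these SDs was not tested. Over all features the SDs ran from 0.18 to 1.71 for the 20 inducible ones and from 0.25 to 1.40 for the 15 constitutive ones, with medians of 0.66 and 0.44.

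The F test over column sets called at least 1 feature of all 10 genes and 87.8% of all features. Among the 35 chaperone features 26 were called (74.3%). The 9 that were not included 6 features of HSPA1A, with adjusted p between 0.22 and 0.732 in limma, and 1 each of HSPA6 (0.0728), HSPA8 (0.162) and HSPH1 (0.0576). Column sets held a median of 69.4% of the variance of the chaperone features, against 79.5% over all features. Labelled groups held a median of 28.4%, against 24.2% over all features. Values without structure would give 40.4% and 27.7% on average from the numbers of levels, so the group share of the chaperones is close to that level.

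**Figure D4:**
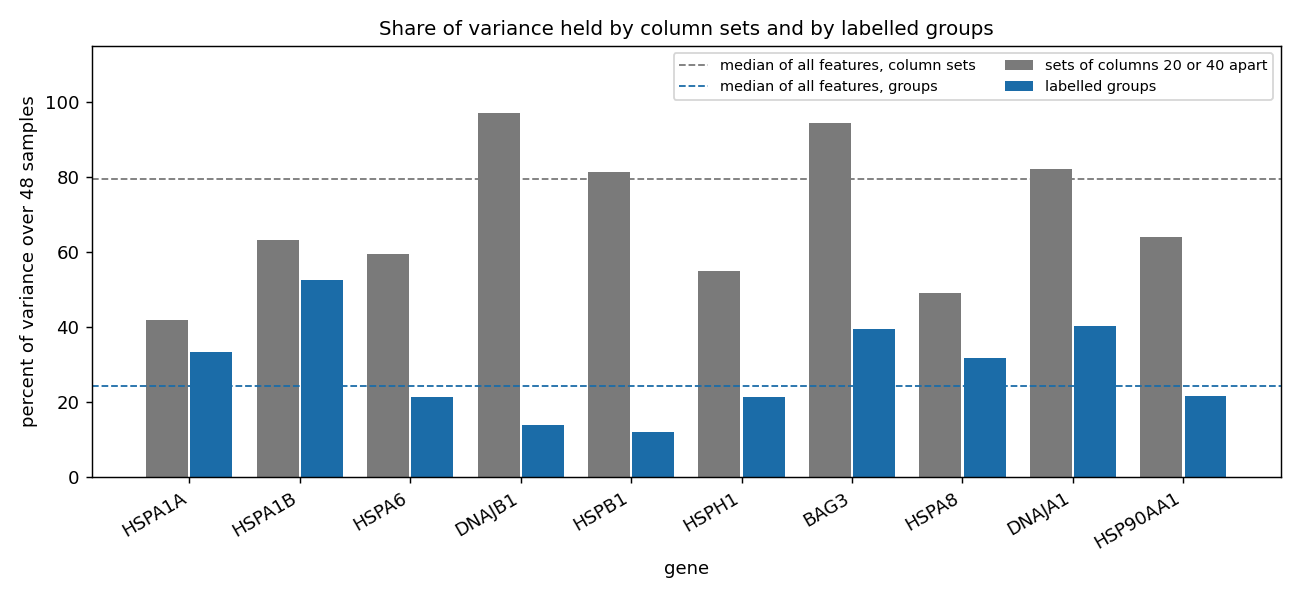
Percent of the variance over 48 samples (y axis) held by column sets (grey bars) and by labelled groups (blue bars) for the highest-mean feature of each chaperone gene (x axis). Dashed lines are the medians of all 45220 features, 79.5% and 24.2%. DNAJB1 and BAG3 exceed 94% for column sets, and HSPA1A stays at 41.8%.

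On the highest-mean feature of each gene, the chaperones did not form a block that moved together over the 48 samples. Of the 45 pairs of genes, 0 had a Pearson correlation above 0.5 or below -0.5, and the median was 0.06. The 2 features of a gene correlated at 0.01 for HSPB1, 0.21 for HSPA8 and 0.68 for HSPH1. The pair values therefore hold for the features used. HSPA1A and HSPA1B, whose promoters are printed above, correlated at 0.06 (Spearman 0.06, and Pearson 0.05 without the 2 samples farthest from the median). The highest values were 0.45 for HSPA1B with HSPA6, which was 0.46 without 2 samples, and 0.45 for HSPB1 with BAG3, which was 0.38 without 2 samples and -0.40 within column sets. HSPA1A with HSPH1 gave -0.41. These correlations are descriptions without a test, because samples of a column set share an array surface.

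When the mean of each column set was taken off, so that only differences between samples of the same set remained, larger correlations appeared. The same feature of each gene was used. BAG3 with HSPH1 and BAG3 with DNAJA1 gave 0.80 each, HSPH1 with DNAJA1 0.76, DNAJB1 with BAG3 0.70 and DNAJB1 with HSPH1 0.67. HSPA1A and HSPB1 went together at 0.70 and ran against HSPH1, at -0.61 and -0.70, and HSPB1 ran against HSP90AA1 at -0.73. In all, 8 of 45 pairs exceeded 0.5 and 3 were below -0.5. Values over 0.5 in size were found with 26.0% of all other features for HSPH1, 24.6% for DNAJB1, 19.3% for HSPB1, 18.4% for BAG3, 17.2% for HSPA1A and 0.6% for HSPA6. With the means of the first 20, next 20 and last 8 columns also taken off, a step chosen after the values were seen, BAG3 with HSPH1 was 0.74, DNAJB1 with BAG3 0.58, DNAJB1 with HSPH1 0.54, BAG3 with DNAJA1 0.85, HSPA1A with HSPB1 0.68 and HSPB1 with HSPH1 -0.71. Of the 45 pairs, 12 then exceeded 0.5 and 3 were below -0.5. Shares over 0.7 in size were taken with column-set means alone removed. They were 11.0% of all other features for HSPH1, 5.8% for DNAJB1, 5.3% for HSPB1, 3.7% for BAG3 and 3.2% for HSPA1A. No such shares were computed with the means of the first 20, next 20 and last 8 columns also taken off.

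**Figure D5:**
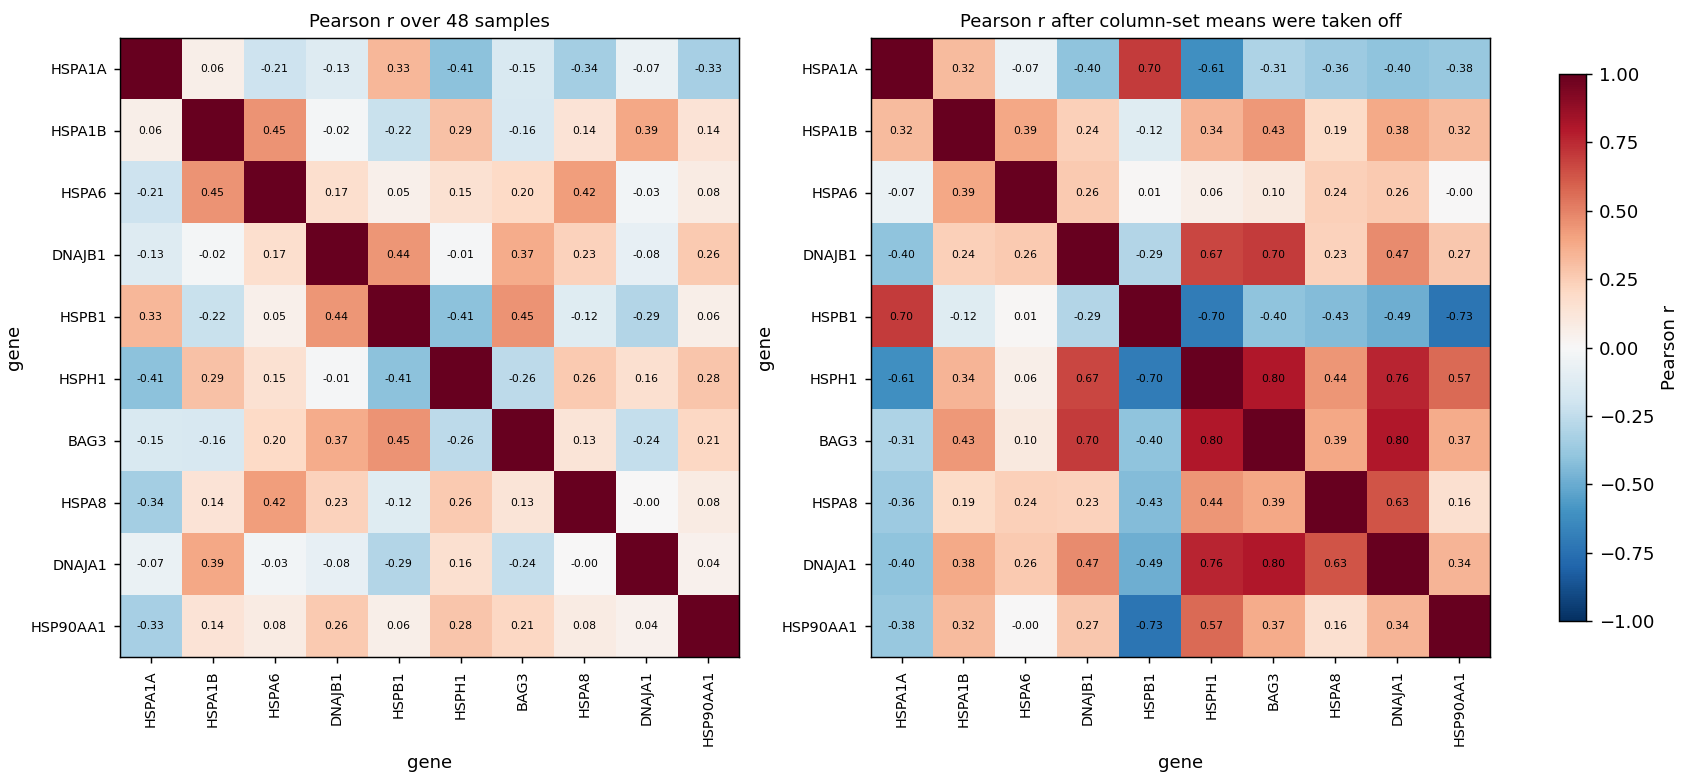
Pearson correlations between the highest-mean features of the 10 chaperone genes over 48 samples (left) and after column-set means were taken off (right). Both axes list the genes and colour gives the correlation from -1 to 1. The left panel stays between -0.41 and 0.45, and the right panel shows HSPH1, BAG3, DNAJA1 and DNAJB1 together and HSPA1A with HSPB1 against them.

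The features of other genes most like the inducible members were found by correlation over the 48 samples. They were set against the mean of 7 standardised values, taken on the highest-mean feature of each inducible gene. The first 10 were RABGAP1 (0.67), BHLHE40 (0.65), LIPG (0.65), COL6A3 (0.64), IL17RA (0.64), NPC1 (0.63), MELTF (0.63), PFKFB3 (0.63), EWSR1 (0.62) and PSEN2 (0.62). The members' own correlations with that mean ran from 0.12 for HSPH1 to 0.61 for HSPA6 and DNAJB1. With column-set means taken off, 0 of these 10 stayed in the first 10, which became SLC17A5 (0.82), PCMT1, RHCE, LONRF3 and GPRIN3 (0.80 each), MOSPD1, SULF2, TXNDC9 and MORF4L2 (0.79 each) and GASAL1 (0.78). The feature nearest to HSPA1B alone was DUSP1, a phosphatase gene of the early stress response, at 0.77, and the nearest to HSPA1A was PLPP1 at 0.86.

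Other genes of the heat shock and folding system also gave few calls over the labelled groups. Of all features, 0.429% were called in Fullerene 6 h and 0% in each other material comparison, so few calls are the background here. Of the heat shock factors and their binding protein, 3 of 4 genes were measured, with 0 called in any material comparison, and of other HSF1 targets 16 of 18, with 0 called. Of 15 constitutive cytosolic chaperones and co-chaperones 0 were called, of 6 measured small heat shock proteins 0 and of 11 chaperones of the endoplasmic reticulum 0. The F test over labelled groups called 0 features of these lists and 0.0287% of all features. The small heat shock proteins stood apart in size, with a median log2 fold change of 1.14 in Fullerene 6 h, against -0.3 to 0.43 in the other lists. That median was taken over 16 features of the 6 genes. Features of 1 gene, such as 2 of HSPB7, share its RNA, so the median does not show a shift of each gene. The 16 features had a median SD of 0.91, and column sets held a median of 85.6% of their variance. No test of this departure was made.

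Of the 8 chaperonin subunits, which form the ring that folds actin and tubulin, CCT4 was called in Fullerene 6 h on feature 9377. The 8 genes had 37 features, with a median log2 fold change of -0.18 there. Feature 9377 stood at 15.22, 11.61 and 11.08, against 15.52, 15.39, 15.56, 15.45, 14.78 and 15.51 in control. Its log2 fold change was -2.73 ± 0.55 (SE, adjusted p = 0.0116 in limma). Replicate 1 lay within the control range, and the low replicates 2 and 3 are those of column set 3. The 6 mitochondrial chaperone genes had 15 features, with a median log2 fold change of 0.43 in Fullerene 6 h. Feature 3952 of DNAJA3, a mitochondrial Hsp40, was higher there, at 12.50, 12.40 and 12.59, against 11.87, 11.60, 11.66, 11.77, 11.52 and 11.74 in control. These groups did not overlap, and 2.97% of all features lay above control in that way. The log2 fold change was 0.81 ± 0.18 (SE, adjusted p = 0.0307 in limma), where 0.429% of all features were called. Over all material comparisons, 194 features were called and 9 with column sets as a random block.

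In each list the features with the lowest unadjusted F test p over labelled groups were HSF1 (0.13) and HSBP1 (0.211), RGS2 on 2 features (0.0134 and 0.0296), HSPA4 (0.112) and ST13 (0.159), CCT4 (0.00281) and CCT7 (0.0306), HSPB7 on 2 features (0.0576 and 0.178), DNAJC3 (0.153) and SDF2L1 (0.171), and DNAJA3 (0.0205) and GRPEL1 (0.09). After adjustment in limma, CCT4 stood at 0.978 and the others at 1.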

How the data were processed

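RNA of 48 THP-1 samples was amplified, labelled in 3 dyes and hybridised to microarrays, per the labels' protocols. The deposited values are log2 values per feature with near equal sample medians, normalised by a method not given in the sources used here. The submitters' processing notes name R 2.3 and limma. Of 45220 features, 35268 had 1 gene symbol, updated through the gene identifier for 35128, and 9952 were unnamed here. All columns matched a labelled sample.

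One limma 3.58.1 fit in R 4.3.3 covered all features and samples, with 14 groups and the labelled dye as terms, 32 residual degrees of freedom, moderated variances and Benjamini-Hochberg adjustment over all features at 0.05. The number of arrays limits the precision, and the median SE of a chaperone fold change was 0.39. The fit was tested on simulated data. For the surface component, deviations were laid out in rows of 85 spots and smoothed by the median of windows of 11 by 11. Samples of the same code letter correlated in their deviations from group means at 0.0074 on average (lowest pair -0.84), and same-numbered titles at 0.0095 (lowest -0.79). No pairing was seen by these labels, but labels out of step with the columns would hide one, so pairing of the cultures was not decided. All 10 members are named; of the other lists, genes past the threshold and the 2 features of lowest group F test p. The members, lists and rule were chosen with earlier results of these data known. Alternatives covered dye, blocks, surface, normalisation, feature choice, variance model, controls and each sample left out.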

Additional observations from a re-analysis of the deposited data

Results flagged for a closer look

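Among the 6 samples of each control group, 8 values of the 35 chaperone features stood apart from the other 5 by Dixon's criterion, out of 70 groups of values examined, where chance gives about 1 in 20. Control 6 h replicate 5 held 5 of them. HSPA1A feature 18571 read 7.51 there, against 11.3 to 12.96 in the other controls, feature 19604 read 7.65, against 11.3 to 12.85, and feature 20947 read 7.58, against 11.25 to 13.25. HSP90AA1 feature 13634 read 12.16 in that sample, against 14.03 to 14.83, and feature 19261 read 9.57, against 14.22 to 14.78. That sample belongs to column set 16 with Graphite 24 h replicate 1, which was low on the same features. HSP90AA1 feature 38421 read 12.99 in control 6 h replicate 6, against 14.22 to 14.68. HSPA6 feature 39857 read 7.15 in control 24 h replicate 4, against 6.53 to 6.65, and HSPA8 feature 7121 read 8.83 in control 24 h replicate 1, against 8.26 to 8.47.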

How the results depend on the processing

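The count of chaperone genes called between a material and its control, 1 in the reported fit, was 0 with column sets as a random block (consensus correlation 0.712), 3 without the 6 samples of surface SD above 0.2 (HSPA1B, HSPA1A feature 8055 at -2.28 and HSP90AA1 feature 23954 at -1.91, all in Fullerene 6 h), 0 with controls of code 1 alone and 0 with controls of code 6 alone. All called features numbered 194 as reported and 9, 1846, 17 and 16 in those settings, 1432 in fits of each contrast's own groups, and 91 and 60 with 1 feature per gene and with the mean of a gene's features. The code-letter replicate block gave 1 gene and HSPA1B at -1.66 with an adjusted p of 0.0179 (limma), and changed no call. HSPA1B in Fullerene 6 h stood at -1.71 (adjusted p = 0.115) and -1.62 (0.212) with the single control codes, and at an adjusted p of 0.217 in the fit of its own groups, where the 1 gene called was HSP90AA1 in Graphite 24 h (adjusted p = 0.0167). Leaving out each sample gave 0 to 3 genes, with HSPA1B between -1.93 and -1.37. The count for the 24 h minus the 6 h effect, 0 as reported, was 2 without the samples of high surface SD (HSPA1A feature 8055 and HSPA1B for Fullerene) and 0 to 1 with each sample left out, the 1 without Fullerene 6 h replicate 1. The column-set count, 10 as reported, was 6 with the mean of a gene's features, 7 with 1 feature per gene, 9 with the surface removed or the samples of high surface SD left out, and 9 to 10 with each sample left out. The share of all features called is not given here for the changed interaction and column-set counts, nor with single samples left out. These counts are therefore not read as particular to chaperones. Counts for all materials, control times and any labelled group were 0 in every setting run, leaving out each sample included (range 0 to 0). The spread difference between inducible and constitutive members, 0.21, was 0.18 with HSP90AA1 among the inducible and 0.22 over all features. Of the 10 features most like the inducible members, 4 stayed with the surface removed. The causes of these changes were not tested. Labelled dye, array and slide may be as out of step with the columns as the groups, and features near the ends of the scale limit fold changes.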
